A study of Mus musculus with 8 samples.

Results

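Cytosolic ribosomal protein genes were described in single-cell transcriptomes of mouse breast tumour endothelial cells (ECs). Members were chosen by name alone: every gene row that starts with Rpl or Rps and a digit, together with Rpsa, Rplp0, Rplp1 and Rplp2, without rows named as pseudogenes by the ending -ps and without the Rps6k kinases. This gave 85 members of 20408 genes, 51 named Rpl (large subunit) and 34 named Rps (small subunit). The rule left out 8 pseudogene rows and 10 kinase rows. Rps19bp1 was kept by its name although it encodes a binding protein of Rps19 and not a ribosomal protein, and Rps3a1 is the mouse symbol of Rps3a.

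Libraries were made with 10x 3′ chemistry from sorted CD31+ CD45- live cells of tumours taken 3 h after an intratumoural injection. The 4 groups crossed tumour model (spontaneous or implanted) with injection (PBS or cGAMP), and each had 2 of the 8 libraries. Spontaneous tumours arose in female MMTV-PyMT mice, which carry the polyoma middle T oncogene behind a mammary tumour virus promoter, and implanted tumours grew from cultured MMTV-PyMT tumour cells placed with Matrigel into the mammary fat pad of females without the transgene. The injection was 14 µg of 3′3′cGAMP, a cyclic dinucleotide that activates STING, in 70 µl of PBS, or PBS alone. The strain is not settled, because adult C57BL/6 mice are given in the labels and FVB mice in the methods. Each group comes from 2 mice by the methods, implanted cells had passed through culture, and an injected tumour has no uninjected control here.

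Cytosolic ribosomal proteins form the small 40S and large 60S subunits of the ribosome, which translates mRNA. Their mRNAs are short and abundant and begin with a pyrimidine-rich stretch, the terminal oligopyrimidine (TOP) tract, through which growth signalling by mTOR controls their translation. Ribosomal protein genes are usually expressed together, and their share of the mRNA of a cell tends to follow growth and biosynthesis.

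All values below are for the 7159 of 8204 cells with at least 1 Pecam1 UMI, Pecam1 being the gene of CD31, and there were 601 to 1529 such cells per library. The 8 endothelial markers (Pecam1, Cdh5, Kdr, Cldn5, Emcn, Tie1, Tek, Egfl7) were detected in every library and summed to 5535 to 6660 CPM (UMIs of the gene per 1000000 UMIs of a cell, averaged over cells). Replicate 1 of implanted cGAMP stood apart. Its median was 3049 UMIs per cell against 9523 to 14708 in the others, 37.9% of its cells were under 2000 UMIs against 3.28% to 10.6%, and it carried the highest sums of epithelial tumour markers (1103 CPM against 160 to 701) and of immune markers (231 CPM against 13.3 to 67.7). UMIs of the mural, epithelial or immune markers were found in 84.6% to 99.6% of cells, and none of these markers was at 0 in any library. Pairs of libraries shared at most 3 cell barcodes.

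The level of a member is its mean CPM over the cells of a library. Because 3′ counting reads each mRNA once at its end, no length scaling was applied, and an order between genes still depends on how many reads map to 1 place only, since ribosomal protein genes have many processed copies in the genome. Rps24 had the highest mean over the 8 libraries at 3485 CPM (3167 to 3695), and Rpl23 at 3327 CPM, Rpl13 at 3325 CPM and Rps20 at 3172 CPM were also among the highest. The ranges of these members over the libraries overlap. At the low end of the 83 tested members stood Rps19bp1 at 33.0 CPM, Rps27rt at 70.4 CPM, Rpl7l1 at 79.9 CPM, Rpl36al at 177 CPM and Rpl29 at 243 CPM. Rpl39l and Rpl3l did not reach the filter of 5 CPM in 2 libraries. Rpl39l ranged from 0.12 to 1.89 CPM, and Rpl3l, the muscle form of Rpl3, was above 0 in 5 of 8 libraries and at most 0.22 CPM. The median cell had a UMI of 77 members in replicate 1 of implanted cGAMP and of 81 in every other library.

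Members made up about the same part of the UMIs in 3 groups and less in implanted cGAMP. The mean per cell was 15.8% and 14.9% of UMIs in spontaneous PBS, 14.5% and 14.9% in spontaneous cGAMP, 14.99% and 15.6% in implanted PBS, and 13.4% and 13.2% in implanted cGAMP. Both implanted cGAMP libraries lay below the other 6. Spontaneous PBS overlapped with spontaneous cGAMP and with implanted PBS. Both spontaneous cGAMP libraries lay below both implanted PBS libraries. The group means were 15.3% ± 0.641 (SD, n = 2), 14.7% ± 0.263, 15.3% ± 0.405 and 13.3% ± 0.138 in this order. Groups of 2 libraries allow no exact test below the usual threshold, so these shares are a description. When each cell was thinned to 2000 UMIs and shallower cells were left out, the shares were 14.4% to 15.5% in the first 3 groups and 13.4% and 13.2% in implanted cGAMP. Cells under 2000 UMIs had shares of 16.8% to 18.6% in the first 3 groups but 13.4% and 14.1% in implanted cGAMP. The mitochondrially encoded share was also lower after cGAMP, with 2.92% to 3.56% of UMIs against 4.33% to 4.66% after PBS, and its part in these values was not tested. Lymphatic markers summed to 1736 and 1759 CPM in implanted cGAMP against 412 to 1051 CPM in the other 6 libraries. In the cells not positive for the lymphatic list, the ribosomal share was 13.5% and 13.4% in implanted cGAMP and 14.8% and 15.4% in implanted PBS.

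**Figure D1:**
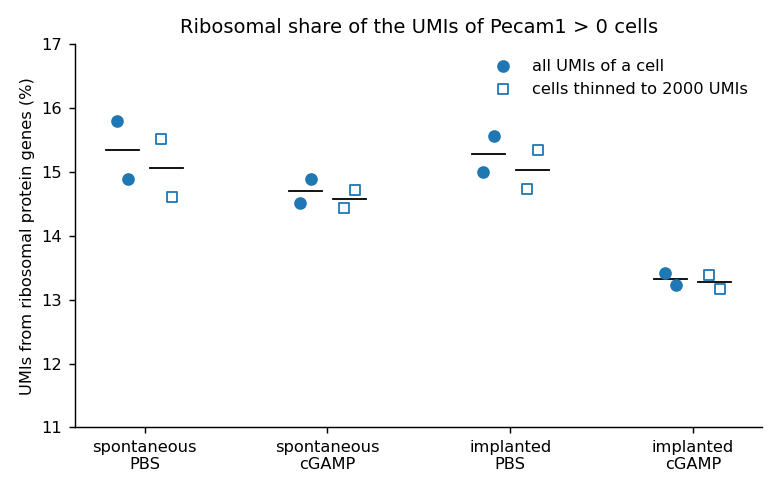
Mean percent of UMIs from the 85 members in Pecam1 > 0 cells (y axis, from 11%) for the 2 libraries of each group, with all UMIs (filled circles) and with cells thinned to 2000 UMIs (open squares), and a bar at the mean of each pair. The implanted cGAMP libraries sit at 13.2% and 13.4%, below the 14.5% to 15.8% of the other 6.

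In implanted tumours, 36 members fell after cGAMP, by up to 0.46 on the log2 scale. Of 83 members tested, 36 fell and 2 rose in the fit by limma across 10424 genes (Benjamini-Hochberg adjusted p under 0.05), that is 38 called where 25.0% of all genes were called. Of all genes, 16.4% were called lower and 8.60% higher. The median log2 fold change of the members was -0.19 and that of all genes was -0.10, both on the log2(CPM + 1) scale. Large subunit genes (19 fell and 2 rose of 49) and small subunit genes (17 fell of 33) had medians of -0.18 and -0.22, with Rps19bp1 in neither count. In 60 members both cGAMP libraries lay below both PBS libraries, which held for 41.6% of all genes, and in 9 both lay above, which held for 21.6%.

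Rpl3, which sits near the peptidyl transferase centre of the large subunit, fell the most. Its level was 1699 and 1751 CPM in implanted PBS and 1273 and 1228 CPM in implanted cGAMP. The 2 groups lay far apart compared with their spread, and Rpl3 changed by -0.46 on the log2 scale (limma adjusted p = 0.0018, SE 0.073). Rps4x, the X-linked small subunit gene (chrX:102184941-102189394 on GRCm38), went from 2419 and 2487 CPM to 1865 and 1714 CPM, with -0.46 (adjusted p = 0.0020). Both genes were also lower within the marker-defined classes described below. In arterial-positive cells Rpl3 was at 1555 and 1545 CPM after PBS and at 1191 and 1224 CPM after cGAMP, and Rps4x was at 2022 and 2094 CPM and then at 1490 and 1563 CPM. In venous-positive cells Rpl3 was at 1604 and 1722 CPM and then at 1254 and 1188 CPM. These values within classes were not tested. Rpl10a went from 1330 and 1352 CPM to 1048 and 911 CPM, with -0.46 (adjusted p = 0.0042). Rps9 fell by 0.41 on the log2 scale (adjusted p = 0.0038). All of these had cGAMP libraries below PBS libraries without overlap.

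Other members with known extra roles moved less. Rpl5 and Rpl11, which with 5S rRNA bind Mdm2 when ribosome assembly is disturbed, fell by 0.29 and 0.24 on the log2 scale (limma adjusted p = 0.013 and 0.031). Rplp0, the base of the acidic stalk that recruits elongation factors, fell by 0.25 (adjusted p = 0.037). Its stalk partners Rplp1 and Rplp2 did not pass, at -0.22 (adjusted p = 0.057) and -0.02 (adjusted p = 0.85). Rpsa, also known as the laminin receptor, fell by 0.28, and Rps27a, made as a ubiquitin fusion, fell by 0.25. Rps6, the substrate of the Rps6k kinases, was at -0.10 (adjusted p = 0.32), and Rps29 was at -0.09 with 1 cGAMP library inside the PBS range.

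The 2 members that rose were Rpl36al and Rpl13a. Rpl36al, the autosomal copy of Rpl36a (chr12:69182731-69184083 on GRCm38), was at 149 and 150 CPM in implanted PBS and at 190 and 232 CPM in implanted cGAMP, with 0.49 on the log2 scale (SE 0.098, adjusted p = 0.0061). Rpl13a, known for leaving the ribosome after interferon-gamma to silence mRNAs in myeloid cells, was at 280 and 301 CPM and then at 331 and 382 CPM, with 0.29 (adjusted p = 0.045). The cGAMP libraries of both genes were above the PBS libraries, and the gap for Rpl13a was close to its spread. Rpl41, which encodes the smallest ribosomal protein, was at 2671 and 2794 CPM and then at 2844 and 3039 CPM without passing the test (0.11, adjusted p = 0.29).

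The number of members called rests on a small number of libraries. The counts in this paragraph are given without the share of all genes called in the same setting and are not compared with it. It was 20 without replicate 1 of implanted PBS, 9 without replicate 2 of implanted PBS, 19 without replicate 2 of implanted cGAMP and 37 without the shallow replicate 1 of implanted cGAMP. With median-of-ratios scaling, which moves the median of all genes from -0.10 to -0.01, 14 members fell and 4 rose. With every gene scaled to the UMIs of genes that are neither members nor mitochondrially encoded, 48 fell and 1 rose. Leaving out cells with at least 3 markers of a mural, epithelial or immune list, an alternative chosen after seeing the data, gave 34 that fell and 2 that rose.

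In spontaneous tumours, only Rps4x fell (0 rose), so 1 of 83 members was called where 12.7% of all genes were called (7.59% lower and 5.09% higher). Rps4x was at 2654 and 2473 CPM after PBS and at 2102 and 2197 CPM after cGAMP, with -0.25 on the log2 scale (limma adjusted p = 0.049). Rpsa (-0.28) and Rps21 (-0.27) had as large a difference and missed the threshold, with adjusted p = 0.057 and 0.056. Rpl13a was at 304 and 297 CPM after PBS and at 344 and 390 CPM after cGAMP, with 0.28 (adjusted p = 0.076). The median of the members was -0.06 beside -0.10 for all genes, and with median-of-ratios scaling it was 0.04, so no direction can be given for the group. In that scaling 2 members rose and none fell. With CPM, 18 members had an unadjusted p under 0.05.

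**Figure D2:**
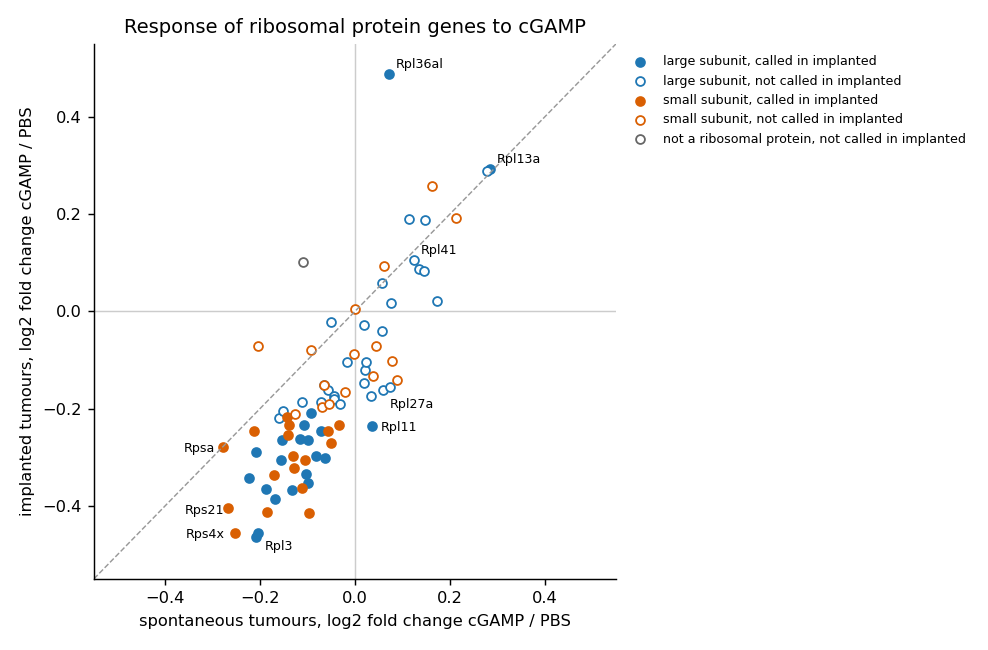
Log2 fold change cGAMP / PBS of the 83 tested members in spontaneous (x axis) and implanted tumours (y axis), coloured by subunit and filled where called in implanted tumours, with a dashed line of equal change. Of the points 70 lie below the line, and Rpl36al stands alone at 0.49 in implanted tumours.

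The 2 responses share no library and moved alike across members. Pearson's r over the 83 members was 0.81 (Spearman's rho 0.81), beside 0.72 over all 10424 genes, and members are not independent replicates. Of the members, 54 were below 0 in both models and 15 above 0 in both, and 70 had the lower value in implanted tumours. The test of the difference between the responses called 0 of 83 members where 0.662% of all genes were called (0.460% lower and 0.201% higher), with 11 members at an unadjusted p under 0.05 in limma, the only tool run. The difference between the responses was largest for Rpl36al at 0.42 (adjusted p = 0.25). Rpl11 was at 1836 and 1685 CPM in spontaneous PBS and 1779 and 1826 CPM in spontaneous cGAMP, but at 1819 and 1825 CPM in implanted PBS and 1572 and 1524 CPM in implanted cGAMP. Its difference of -0.27 (SE 0.095) did not pass either (adjusted p = 0.27). For no single member was the response shown to differ between the models.

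**Figure D3:**
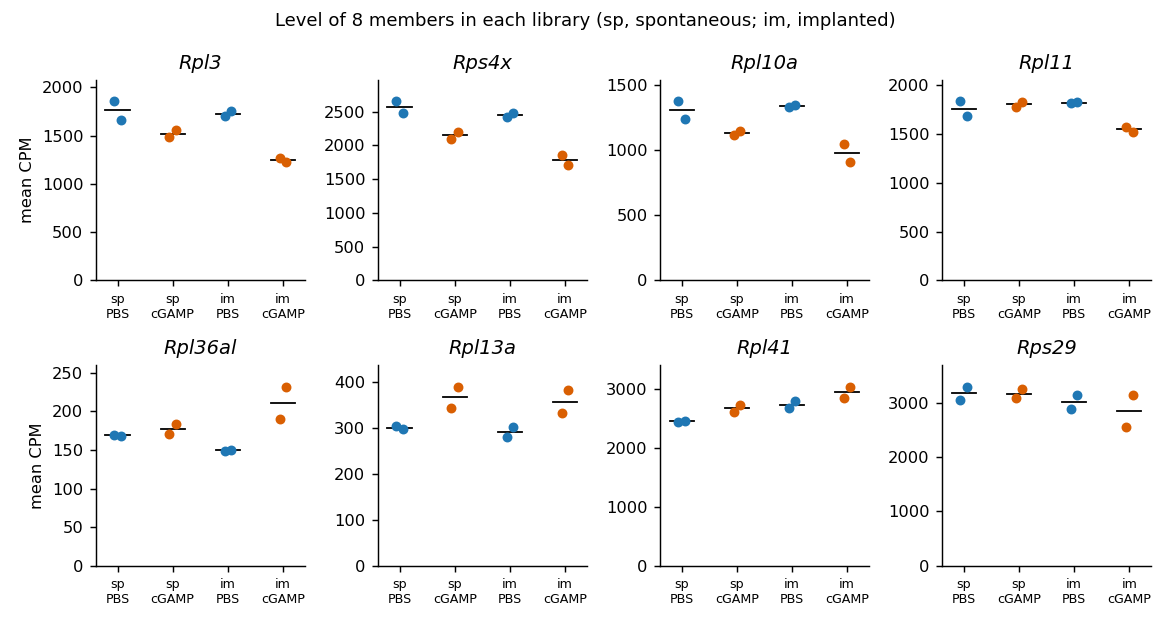
Mean CPM of 8 members (y axes, from 0) in the 2 libraries of each group, with a bar at the mean of each pair. Rpl3, Rps4x, Rpl10a and Rpl11 are lowest in implanted cGAMP, Rpl36al is highest there, and the 2 implanted cGAMP libraries of Rps29 lie apart.

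Between the models after PBS, no member was called where 7.83% of all genes were called in limma (4.44% lower and 3.39% higher), and 1 member had an unadjusted p under 0.05. The median of the members was -0.01 for implanted minus spontaneous tumours, and the values ran from -0.22 for Rps27rt to 0.16 for Rpl41. After cGAMP, 8 members were lower in implanted tumours and 0 higher, where 13.8% of all genes were called (8.53% lower and 5.23% higher). Among them were Rps21 (-0.31, adjusted p = 0.034), Rpl3, Rps14, Rps4x, Rps3a1, Rpl27a and Rpl9 (-0.23 to -0.28). These 8 of 83 are close to the share of all genes called lower. Rpl27a was at 2598 and 2617 CPM in spontaneous cGAMP and at 2196 and 2209 CPM in implanted cGAMP, 2 groups far apart for their spread. This comparison shares its implanted cGAMP libraries with the response above. With no filter on low values 0 members were called (21 at an unadjusted p under 0.05, limma), and with members scaled to the other genes 17 were. Leaving out either spontaneous cGAMP library gave 0, either implanted PBS library 4 and either implanted cGAMP library 5.

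Genes of the same machinery were counted by lists. Of 3 tested ribosomal proteins with other names, only Rack1 was called in implanted tumours, where it fell (-0.29 on the log2 scale, limma adjusted p = 0.033). In spontaneous tumours 0 were called. Of 14 other mRNAs with TOP tracts, 7 fell and 0 rose in implanted tumours, among them Eif4b (-0.49) and Eef1b2 (-0.44), an initiation and an elongation factor, and Eef1b2 alone fell in spontaneous tumours (-0.33). The medians of this list were -0.22 and -0.07. Of 20 ribosome biogenesis genes, 1 fell in implanted tumours, Nop10 (-0.59) of the pseudouridylation complex. In spontaneous tumours 4 fell, led by Wdr12 (-0.72) of the PeBoW complex and Dkc1 (-0.50), the pseudouridine synthase. The medians were 0.04 and -0.32. Of 77 tested mitochondrial ribosomal protein genes, 10 fell and 3 rose in implanted tumours and 3 fell and 2 rose in spontaneous tumours, with Mrpl34 at -0.82 and -0.36 and Mrpl27 at 0.39 and 0.88. Of all genes, 16.4% were called lower in implanted and 7.59% in spontaneous tumours, so the mitochondrial list and, in implanted tumours, the biogenesis list had smaller shares than all genes.

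Vessel types were compared by marker lists within each library. A cell counted as positive for a list when at least 2 of its markers were found after thinning to 2000 UMIs, which left 6158 cells. No doublet caller was run and the sources used here name no removal of doublets, so a cell positive for several lists may hold more than 1 cell. Such a class is a range and not a cell type: 1756 cells had exactly 1 arterial marker and 672 exactly 2, and 71.1% of the 1899 arterial-positive cells were also positive for another list. Marker-positive cells were set against the other cells of the same library, with the library as a block.

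Arterial-positive cells had lower levels of nearly all members. Of 83 members, 78 were lower and 0 higher, where 37.3% of all genes were called in limma, 17.7% lower and 19.6% higher. The median log2 fold change was -0.28 for the members and 0.00 for all genes. In 77 members the arterial-positive cells were lower in all 8 libraries, which held for 11.1% of all genes. The ribosomal share of UMIs was lower in arterial-positive cells in 8 of 8 libraries, with differences of -4.09 to -1.89 percentage points, and was for example 12.7% against 16.8% in replicate 1 of spontaneous PBS and 11.8% against 13.7% in replicate 2 of implanted cGAMP. Arterial-positive cells had fewer UMIs in 7 of 8 libraries (medians of 8666 to 13681 against 9509 to 16608). In cells thinned to the same depth 73 members were lower, beside 1018 of 11371 genes. Leaving out any library gave 77 or 78. Against cells positive for no list, cells positive for the arterial list alone were lower in 69 of 84 members and higher in none. In this alternative, chosen after seeing the data, 1060 of 11520 genes were called lower. The median of the members was -0.37 there, and it was also below its main value for the other lists run in this way (given below). How much of the arterial value comes from this reference was not tested. The difference was not shown to vary with cGAMP or with the model: limma called 0 of 83 members in either test (0.175% and 0.0644% of all genes were called), and 15 and 0 members had an unadjusted p under 0.05.

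The largest differences were in Rplp0, Rps28, Rps3, Rpl28 and Rpl39. Rplp0 (chr5:115559467-115563727 on GRCm38) ranged over the 8 libraries from 1492 to 1770 CPM with a median of 1616 CPM in arterial-positive cells and from 2106 to 2732 CPM with a median of 2312 CPM in the others. The 2 ranges did not overlap, and Rplp0 changed by -0.52 on the log2 scale (limma adjusted p = 3.5e-08, SE 0.036). Rps28 (chr17:33819027-33824562), a short protein near the mRNA exit of the small subunit, had medians of 636 and 884 CPM and changed by -0.51. Rps3, a small subunit protein at the mRNA entry that also acts in DNA repair and NF-kB signalling, had medians of 1782 and 2410 CPM and changed by -0.49. Rpl28 and Rpl39 changed by -0.47 and -0.46, and Rpsa by -0.46. All of these were lower in 8 of 8 libraries.

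The 5 members that were not called, named after their values were seen, were Rps21, Rps27, Rps27rt, Rpl22l1 and Rps19bp1. Rps21 had medians of 2038 CPM in arterial-positive cells and 2085 CPM in the others, with 0.01 on the log2 scale (SE 0.033). Rps27 was at -0.05 (SE 0.033), lower in 5 of 8 libraries, and its near copy Rps27rt at -0.08. Rpl22l1, the paralogue of Rpl22, was at -0.04 while Rpl22 fell by 0.36. Rps19bp1 was at -0.10 with a wide error (SE 0.094).

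**Figure D4:**
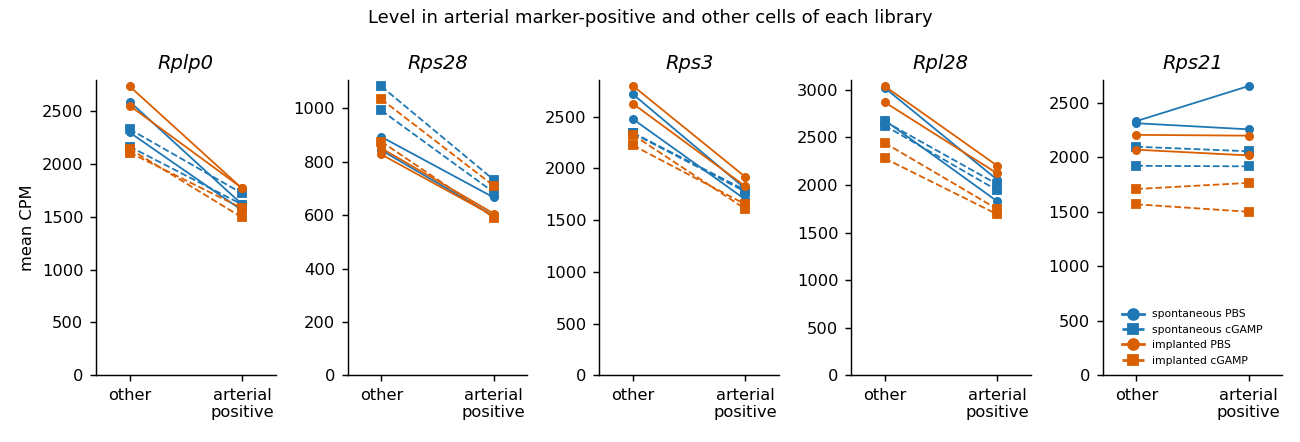
Mean CPM (y axes, from 0) of 5 members in the other cells and in the arterial-positive cells, 1 line per library, coloured by model and dashed for cGAMP. Rplp0, Rps28, Rps3 and Rpl28 fall in all 8 libraries, and Rps21 is level at medians of 2085 and 2038 CPM.

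To show what the most and least different members look like at their starts, 30 bases around the RefSeq start (15 before and 15 from it, GRCm38.p6, sense strand) are given with the longest run of C and T in capitals. The first 4 are the most lowered in arterial-positive cells and the last 4 were not called. The window of Rps27rt holds another run of the same length, ctttcc, after the marked one.

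Rplp0: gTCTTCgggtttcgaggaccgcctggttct
Rps28: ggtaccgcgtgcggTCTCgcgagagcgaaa
Rps3: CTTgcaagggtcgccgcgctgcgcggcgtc
Rpl28: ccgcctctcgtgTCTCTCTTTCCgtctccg
Rps27rt: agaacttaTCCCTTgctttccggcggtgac
Rps27: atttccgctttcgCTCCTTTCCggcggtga
Rpl22l1: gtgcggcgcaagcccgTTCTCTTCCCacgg
Rps21: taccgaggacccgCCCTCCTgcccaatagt

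The runs were 3 to 11 bases long in the first 4 and 6 to 10 in the last 4, so the run length in this window does not separate them. For Rps3, Rpl28 and Rpl22l1 the 5′ end of the gene in GENCODE (99483738, 4792874 and 28805436) lies outside the window. The windows of these 3 genes may therefore miss the start of the mRNA and its tract. These windows lie at chr5:115559452-115559481, chr17:33824548-33824577, chr7:99483695-99483724, chr7:4792950-4792979, chr9:114982725-114982754, chr3:90213634-90213663, chr3:28805493-28805522 and chr2:180257364-180257393 in this order, with Rps28, Rps3, Rps27rt and Rps27 on the minus strand. A promoter sequence was at hand for 65 of 85 members. In these the median run was 6 bases against 4 over 27025 promoters of all genes, and 38.5% against 11.9% had a run of at least 8. In the 300 bases from 250 before to 50 after the start, CGGAAG, the core of ETS factor sites, was found on either strand in 67.7% of members and 17.2% of all promoters, CTTTCC in 49.2% and 26.3%, and TATAAA in 9.23% and 14.2%. A match is a description of letters and not a site.

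Other lists were counted in the same cells, where 17.7% of all genes were called lower. Of ribosomal proteins with other names, all 3 tested were lower, with a median of -0.34 and Rack1 at -0.34. Of 14 other TOP mRNAs, 13 were lower and 0 higher, led by Eef1b2 (-0.46) and Hnrnpa1 (-0.41). Of 20 ribosome biogenesis genes, 11 were lower and 0 higher, led by Myc (-0.83, adjusted p = 1.5e-05), a transcription factor that drives ribosome production, and Nhp2 (-0.61) of the pseudouridylation complex. Mitochondrial ribosomal protein genes were lower in 17 and higher in 1 of 77, with a median of -0.10, a share near that of all genes.

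Postcapillary venous (stalk-like) positive cells had higher levels of 52 members when set against all other cells. Of 83 members, 52 were higher and 1 lower, against a background over all genes of 23.9% called (10.8% up, 13.1% down). In 31 members the positive cells were higher in all 8 libraries, which held for 7.08% of all genes. The median was 0.14 beside -0.02 for all genes. Rps3 was the highest at 0.40, with 2561 to 2936 CPM in positive cells and 1891 to 2198 CPM in the others over the 8 libraries (adjusted p = 1.6e-06), 2 ranges that do not overlap. Rpl36a (0.29), Rps6 (0.25), Rps20 (0.25) and Rplp1 (0.25) followed, all higher in 8 of 8 libraries. Rpl22l1 was lower (-0.19, adjusted p = 0.013). The ribosomal share was higher in 7 of 8 libraries, by up to 2.59 points, and level in replicate 1 of implanted PBS (14.7% and 14.7%).

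The difference did not hold in a narrower comparison. When cells positive for the venous list alone were set against cells positive for no list, an alternative chosen after seeing the data, 0 members were higher and 1 lower in limma (3 at an unadjusted p under 0.05), and the median was -0.01. This changed both sides of the comparison and left fewer cells, since 61.8% of the venous-positive cells were also positive for another list. The part of each was not tested. The median of the members was below its main value for the other lists run in this way as well. It was -0.37 for arterial, -0.19 for tip-like, -0.06 for AQP7+ and -0.25 for lymphatic cells, against -0.28, -0.10, 0.01 and -0.19 in the main fit. Set against all other cells, 20 members were higher and 1 lower in PBS libraries alone (1002 and 1364 of 10440 genes). In cGAMP libraries alone 12 were higher and 0 lower (448 and 586 of 10379 genes). The median stayed at 0.14 in both, with 77 and 81 of 83 members above 0. Between implanted and spontaneous libraries the venous difference had 0 members called in limma (0.138% of all genes), but 40 at an unadjusted p under 0.05, and it was lower in implanted libraries for all but 5 of 83 members (median -0.13, beside 0.00 for all genes). Between cGAMP and PBS libraries 0 were called (0.129% of all genes) and 0 had an unadjusted p under 0.05.

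Tip-like positive cells, from a list with Apln and Esm1, had somewhat lower levels of some members in the main fit. Of 83 members, 25 were lower and 0 higher, where 26.0% of all genes were called (15.4% lower and 10.6% higher). The median was -0.10 beside -0.05 for all genes. Rps6 was the lowest at -0.27, with a median of 1523 CPM in positive and 1785 CPM in other cells, and Rps3 and Rplp1 followed at -0.24 and -0.23. Both Rps6 and Rps3 were lower in 8 of 8 libraries. The count fell to 7 in thinned cells, where 939 of 11248 genes were called lower. The median there was -0.10 beside -0.11 for all genes. The count was 8 without replicate 1 of spontaneous PBS (beside 1428 of 10755 genes) and 11 without its replicate 2 (1498 of 10742). In these settings the share of members called lower was near or below that of all genes. It was 15 members without replicate 2 of spontaneous cGAMP (1613 of 10769 genes) and 16 without replicate 2 of implanted PBS (1433 of 10772).

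Lymphatic-positive cells were few (327 cells, 7 libraries with at least 20) and had lower levels of some members. Of 83 members, 35 were lower and 1 higher, where 25.1% of all genes were called (12.0% lower and 13.1% higher), with a median of -0.19 beside 0.03. Rpl35 (-0.40), Rplp0 (-0.39), Rpl27 (-0.37), Rplp1 (-0.37) and Rps2 (-0.35) were the most lowered. Rps3 went the other way at 0.38 (adjusted p = 0.0077), with medians of 2961 CPM in positive and 2215 CPM in other cells, higher in 6 of 7 libraries. The count was 10 with at least 3 markers, all lower, where 1159 of 10974 genes were called lower. It was 10 in PBS libraries (9 lower, beside 914 of 10864 genes) and 3 in cGAMP libraries (3 lower, beside 715 of 10470). In the first 2 of these settings the share of members called lower was near that of all genes, and in cGAMP libraries it was smaller. For cells positive for this list alone the count was 0 (9 at an unadjusted p under 0.05, limma), where 627 of 9958 genes were called. The count was 21 without replicate 1 of spontaneous PBS and 19 without replicate 1 of spontaneous cGAMP or replicate 2 of implanted cGAMP.

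Proliferative-positive cells could be compared in the 4 PBS libraries alone (21 to 108 cells), since cGAMP libraries held 3 to 17. Here members moved in both directions: 15 were higher and 4 lower of 83, against a background of 29.7% called (13.6% up, 16.2% down). The share of members called was thus below that of all genes, and the share called higher was not far from it. The median was 0.08 beside -0.11 for all genes. Rps27l, a paralogue of Rps27 and target of p53, was at 497, 489, 509 and 479 CPM in the positive cells of the spontaneous and then implanted PBS libraries and at 320, 314, 315 and 333 CPM in the others. The ranges lay far apart, with 0.62 on the log2 scale (SE 0.079, adjusted p = 7.0e-05). Rps27 itself was lower in all 4 libraries, from a median of 1985 CPM in other cells to 1545 CPM (-0.37, adjusted p = 0.00048). Rpsa was higher at 0.61, with 2673 to 3569 CPM against 1914 to 2209 CPM, and Rpl36al, Rps2 and Rpl41 were higher at 0.44, 0.39 and 0.37. Rps27rt (-0.46), Rps21 (-0.24) and Rpl26 (-0.17) were lower. Proliferative-positive cells had more UMIs (medians of 16371 to 20163 against 10227 to 14199). In thinned cells 5 members were higher and 1 lower, beside 338 and 291 of 10740 genes. Without replicate 2 of implanted PBS 8 were called, beside 2100 of 10417 genes. Ribosome biogenesis genes were higher in 10 of 20, with Nhp2 at 1.22 and Nop56 at 1.20, and mitochondrial ribosomal protein genes in 24 of 77, with 0 lower in both lists.

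For the AQP7+ capillary list no member was called in limma, where 17.7% of all genes were called (10.9% lower and 6.81% higher), and 3 members had an unadjusted p under 0.05. The median was 0.01, and the values ran from -0.11 for Rps3 to 0.10 for Rpl27. This median joins libraries that differed. In PBS libraries alone it was -0.05, with 4 of 83 members above 0 (-0.02 for all genes). In cGAMP libraries alone, an alternative that was not planned, it was 0.08, with 78 above 0 (-0.04 for all genes). This list was positive in 34.98% to 62.8% of cells.

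**Figure D5:**
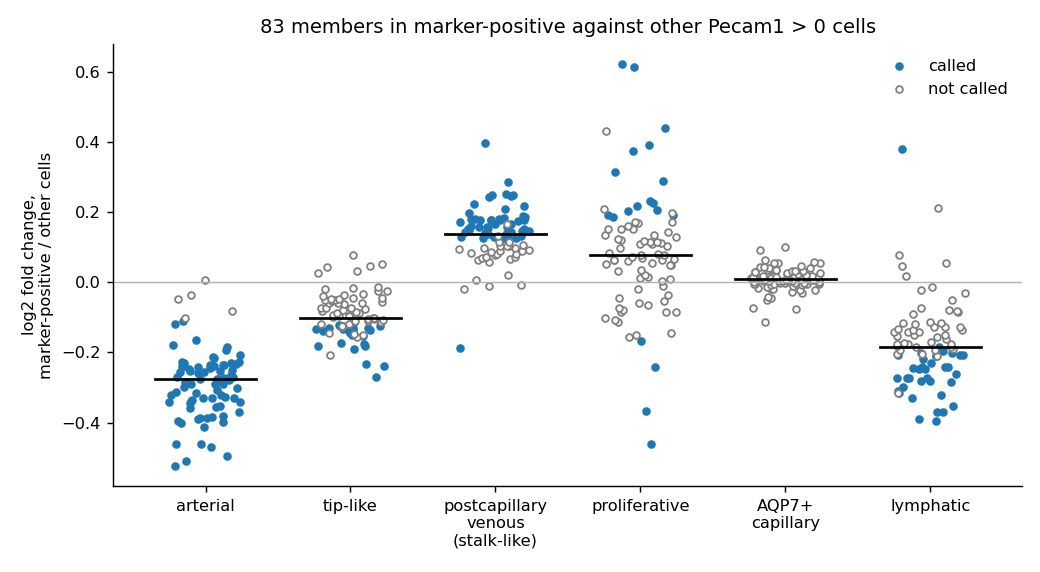
Log2 fold change of the 83 tested members between marker-positive and other cells (y axis) for 6 marker lists, filled where called, with a bar at the median. Arterial values lie below 0 but for Rps21 (median -0.28), postcapillary venous ones mostly above (0.14), and AQP7+ ones around 0 (0.01).

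Paralogues did not always move with the gene they resemble. Rpl36al rose by 0.49 in implanted tumours after cGAMP whereas Rpl36a fell by 0.27, from 1055 and 1126 CPM to 887 and 927 CPM. The pair Rpl22l1 and Rpl22 fell alike in implanted tumours (-0.23 and -0.21) and differed in arterial-positive cells (-0.04 and -0.36). Rps27l and Rps27 were at -0.08 and -0.07 in implanted tumours and moved in opposite directions in proliferative-positive cells. Rpl7l1, the paralogue of Rpl7, was at 0.19 (adjusted p = 0.18) where Rpl7 fell by 0.39. Differences between paralogues were not tested, and reads that map to both copies or to their processed copies could shift either value. Rpl10l and Rps4l were not among the rows used here.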

How the data were processed

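The authors aligned 3′ single-cell reads to mm10 with Cell Ranger (3.0.0 in the submitters' processing notes, which also name Seurat 3.1.1), kept cells of at least 500 genes and at most 10% mitochondrial transcripts, kept genes seen in at least 3 cells, and deposited natural log values, ln(1 + UMIs × 10000 / total), in 1 table per library. UMIs were worked back and were whole for 100% of values within 0.01. There were 97421522 UMIs in 8204 cells, 7863535 to 16506086 per library. No column was left unused (0).

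Mean CPM over Pecam1 > 0 cells was tested as log2(CPM + 1) with limma 3.58.1 (R 4.3.3; eBayes with trend, all 8 libraries in 1 fit, Benjamini-Hochberg over all genes, called under 0.05) for genes that reached 5 CPM in 2 libraries or more. A gene missing from a table was set to 0. Class fits used libraries with at least 20 cells on each side. The fits were tested on simulated data. No experiment label ties libraries to cultures or batches, so p-values measure only the spread between these libraries. In the group fit that is the spread within groups of 2 libraries, pooled over the 4 groups and moderated over genes. In the class fits it is the spread over libraries of the difference between positive and other cells, also moderated over genes. The members and lists were chosen with earlier results of these data known. Named members were the 5 with the largest change each way among those called, the 5 highest and lowest, fixed paralogues and members with known extra roles, and in other lists the 2 largest each way. Rpl27a, Rps3a1 and Rpl9, the members not called in arterial-positive cells and those named for missing a threshold were named after their values were seen. Positions are from GENCODE vM21 and starts from RefSeq. Alternatives varied pseudocount, filter, scaling, cells, depth, pairing and libraries. Some genes are not reported here.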

Additional observations from a re-analysis of the deposited data

Results flagged for a closer look

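The ribosomal share of AQP7+ capillary positive minus other cells had opposite signs between groups. It was -1.62 and -1.38 percentage points in spontaneous PBS, 0.19 and 0.58 in implanted PBS, and 1.21 and 1.25 in implanted cGAMP, whereas spontaneous cGAMP had 1 library on each side (0.47 and -0.15). The group means differed by 1.89 points between implanted PBS and spontaneous PBS and by 2.73 points between implanted cGAMP and spontaneous PBS. The difference between these shares was not tested. For single members, the difference of the AQP7+ contrast between implanted and spontaneous libraries called 0 of 83 in limma, where 0 of 10852 genes were called. Between cGAMP and PBS libraries it called 0 of 83, where 0.59% of all genes were called. In this order 41 and 25 members had an unadjusted p under 0.05 and 82 and 81 were above 0. Their medians were 0.14 and 0.13, beside -0.02 and -0.01 for all genes.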

How the results depend on the processing

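The counts of members called after cGAMP were the least settled. They are given without the share of all genes called in the same setting. In implanted tumours, where 38 were called, 13 were called with no filter on low values, 18 with median-of-ratios scaling and 25 in thinned cells, and leaving out 1 library gave 9 to 37. In spontaneous tumours, where 1 was called, the count was 0 with no filter, with all cells and in thinned cells, 2 with cells of at least 2000 UMIs, without proliferative-positive cells and without cells with 3 markers of another type, 6 when scaled to the other genes or summed over cells, and 0 to 6 with 1 library left out (6 without either implanted cGAMP library, 0 without any other). Its direction turned with median-of-ratios scaling (2, both higher). Implanted against spontaneous after cGAMP went from 8 to 0 with no filter, 2 with median-of-ratios scaling, 17 when scaled to the other genes and 5 with all cells, and to 0 to 7 with 1 library left out (0 without either spontaneous cGAMP library). The difference of the responses and the models after PBS stayed at 0 in all alternatives run, and leaving out 1 library gave 0 to 0.

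Of the vessel-type counts, the arterial one stayed between 69 and 79 in all alternatives run (77 to 78 with 1 library left out). Tip-like went from 25 to 7 in thinned cells and 1 in cGAMP libraries (8 to 25 with 1 library left out), venous from 53 to 34 in thinned cells, 21 in PBS and 12 in cGAMP libraries and 36 to 67 with 1 library left out, proliferative from 19 to 6 in thinned cells (8 to 17), AQP7+ from 0 to 1 in PBS and in cGAMP libraries (0 to 1), and lymphatic from 36 to 10 with 3 markers, 16 in thinned cells, 10 in PBS libraries, 3 in cGAMP libraries and 0 for cells positive for this list alone (19 to 39). For venous cells positive for no other list, 0 members were called higher and 1 lower, where the main fit had 52 higher and 1 lower. There Rpl13 (-0.028), Rpl13a (-0.021), Rpl39 (-0.019), Rplp0 (-0.048), Rps4x (-0.017) and Rpsa (-0.016) changed sign. The cause of these changes was not tested. Counts over all genes fell as well. For the tip-like list 2813 genes were called in the main fit, 1514 in thinned cells and 1270 in cGAMP libraries. For the lymphatic list these counts were 2869, 1415 and 1480, and for the venous list 2598, 1307 and 1034. For the proliferative list 3133 genes were called in the main fit and 629 in thinned cells.

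Replicate numbers did not pair the libraries (correlations of deviations from the group means of -0.22 to 0.13). With the replicate block, 1, 38, 0, 0 and 8 members were called in the 5 comparisons. Because of a correlation of -0.22 in spontaneous tumours, a crossed pairing was added after seeing the data and called 1, 35, 0, 0 and 6, the first of them higher instead of lower. The planned fit without any cell holding a UMI of another cell type was not run, since it left 3 cells in 1 library. Depth was lowest in replicate 1 of implanted cGAMP.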
